A study of Mus musculus with 12 samples.

Results

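The guanylate-binding protein (GBP) and immunity-related GTPase (IRG) genes examined here were 10 named interferon-induced GTPase genes of the mouse: Gbp2, Gbp3, Gbp6, Gbp7 and Gbp9 of the GBP family, and Igtp, Irgm1, Irgm2, Iigp1 and Tgtp2 of the IRG family. They were chosen by name from a table of 54232 genes, all 10 passed the filter on low counts, and each was read in all 12 RNA sequencing libraries. The libraries came from naive CD4+ T cells of spleen and pLN of wild-type (WT) or Ddx55-KO (KO) mice, where Ddx55 encodes a DEAD-box RNA helicase. The 6 groups, with 2 libraries each, were WT and KO cells at 0, 8 or 24 h of stimulation by plate-bound antibodies, anti-CD3 at 5 ug/ml against the T cell receptor complex and anti-CD28 at 2.5 ug/ml against a costimulatory receptor. The sources used here give no knockout allele, Cre driver, strain or age. Nor do they say if replicate libraries are from different mice, and the p-values therefore cover the spread between these samples, which may be technical.

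GBP and IRG proteins are GTPases that a cell makes in response to interferons and that assemble on the vacuoles and membranes of intracellular parasites and bacteria. Interferon gamma signals through its receptor and JAK kinases to gamma-activated sites in the promoters of its target genes, whereas type I interferons signal to interferon-stimulated response elements, to which IRF1 and its relatives bind as well. Activated T cells secrete interferon gamma and also respond to it.

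Of the 10 genes, 9 lie in 4 places described here, and the position of Iigp1 is not given, with coordinates from the GENCODE M21 annotation of GRCm38. Gbp7 (chr3:142530342-142550149), Gbp3 (chr3:142560026-142573209) and Gbp2 (chr3:142620602-142638008) form a row on the plus strand of chromosome 3. Gbp9 (chr5:105077630-105139539) and Gbp6 (chr5:105270702-105293698) lie on the minus strand of chromosome 5, which also holds Ddx55, 19.3 Mb away. Irgm1 (chr11:48861968-48871683) and Tgtp2 (chr11:49057194-49064206) are on the minus strand of chromosome 11, and Igtp (chr11:58199556-58207591) and Irgm2 (chr11:58199618-58222782) overlap on its plus strand.

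Promoter sequences from RefSeq (GRCm38.p6) matched 7 of the 10 genes, without Gbp6, Gbp9 and Iigp1. They are shown because the letters of the binding sites named above stand close to the RefSeq start of each gene. For Irgm1 and Irgm2 the stretch shown lies inside the gene as annotated by GENCODE. Each stretch below runs 5′ to 3′ on the gene's strand over 100 bases, from 110 to 11 bases before the RefSeq start. Capitals mark every match to the gamma-activated site TTCNNNGAA or to the interferon-stimulated response element, taken as GAAA, any 2 bases and GAAA again, searched on both strands of the whole promoter.
Gbp2, chr3:142620553-142620652, plus strand: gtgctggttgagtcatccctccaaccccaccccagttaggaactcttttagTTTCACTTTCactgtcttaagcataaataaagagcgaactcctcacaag
Gbp3, chr3:142559934-142560033, plus strand: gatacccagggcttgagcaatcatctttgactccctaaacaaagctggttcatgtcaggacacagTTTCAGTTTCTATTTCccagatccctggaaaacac
Gbp7, chr3:142530226-142530325, plus strand: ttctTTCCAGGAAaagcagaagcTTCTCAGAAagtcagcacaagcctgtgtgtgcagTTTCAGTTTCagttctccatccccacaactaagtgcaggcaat
Igtp, chr11:58199446-58199545, plus strand: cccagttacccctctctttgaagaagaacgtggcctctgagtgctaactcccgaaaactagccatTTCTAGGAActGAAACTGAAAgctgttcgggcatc
Irgm2, chr11:58214867-58214966, plus strand: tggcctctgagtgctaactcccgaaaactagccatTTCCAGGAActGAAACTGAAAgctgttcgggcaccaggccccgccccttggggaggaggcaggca
Tgtp2, chr11:49064223-49064322, minus strand: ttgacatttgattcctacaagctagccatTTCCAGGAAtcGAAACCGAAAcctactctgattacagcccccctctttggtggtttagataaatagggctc
Irgm1, chr11:48871431-48871530, minus strand: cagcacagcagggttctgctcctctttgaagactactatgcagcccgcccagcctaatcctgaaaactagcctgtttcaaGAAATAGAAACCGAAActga

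All 7 genes had the response element in at least 1 promoter, against 3.44% of all 32851 promoters of the same length in the table. In Gbp3 and Irgm1 it occurred as 2 overlapping matches, and in Gbp2, Gbp3 and Gbp7 it stood on the opposite strand from that in the IRG genes. The gamma-activated site was found in Gbp7 (2 matches), Igtp, Irgm2 and Tgtp2, against 8.30% of all promoters, and both motifs occurred together in 0.454% of them. In Igtp, Irgm2 and Tgtp2 the site was followed after 2 bases by the response element, an arrangement found in 5 of the 32851 promoters, those of these 3 genes, Tgtp1 and Gm12185. The spacing was chosen for counting after the sequences were seen, and a match describes the letters only.

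Before stimulation, WT cells already held RNA of all 10 genes. Levels are in CPM, read counts relative to library size scaled by TMM factors, and levels of different genes are compared per kilobase of exon. Igtp, which encodes a regulatory IRG that keeps its effector relatives inactive on the cell's own membranes, was highest at 84.4 ± 23.6 CPM per kilobase (SD, n = 2). Gbp9 followed with 42.6 ± 7.92 and Gbp2 with 28.1 ± 4.58 CPM per kilobase, and the libraries of these 3 genes did not overlap. From Gbp2 down through Tgtp2, Irgm1, Gbp7, Irgm2 and Iigp1 to Gbp6 each gene overlapped the next in order, Gbp6 did not overlap Gbp3, and Gbp3 was lowest at 3.61 ± 0.319 CPM per kilobase.

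Stimulation of WT cells split the family. Gbp2, Igtp, Gbp3 and Iigp1 were higher at 24 h than at 0 h, Gbp9, Gbp7 and Tgtp2 were lower, and Irgm1, Irgm2 and Gbp6 did not pass the test. By edgeR's quasi-likelihood test, with calls made here and below at a Benjamini-Hochberg adjusted p under 0.05, 4 of the 10 rose and 3 fell, against 33.0% of all 15679 genes tested higher and 33.6% lower (66.5% in either direction). The share of members called was thus close to that of all genes, and their median log2 change was 0.31 against -0.09 for all genes. In bulk samples fewer cells of a type and less RNA per cell cannot be told apart.

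Gbp2, a prenylated GBP that coats parasite vacuoles in infected cells, rose the most. Its WT libraries held 62.6 and 78.9 CPM at 0 h, 227.8 and 288.3 at 8 h, and 619.1 and 649.0 at 24 h. The 3 times did not overlap, and the log2 change from 0 to 24 h was 3.16 ± 0.16 (SE), an 8.96-fold rise (edgeR, adjusted p = 7.62e-10). It rose by 1.87 ± 0.15 on the log2 scale in the first 8 h (adjusted p = 1.03e-07) and by 1.30 ± 0.15 from 8 to 24 h (adjusted p = 8.79e-06).

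Igtp was called from 8 to 24 h and not from 0 to 8 h. It read 137.0 and 204.4 CPM at 0 h, 171.0 and 192.7 at 8 h, and 403.8 and 397.1 at 24 h. The libraries of 0 and 8 h overlapped and those of 24 h stood above them. Its log2 change was 0.09 ± 0.16 from 0 to 8 h (edgeR, adjusted p = 0.634) and 1.14 ± 0.16 from 8 to 24 h (adjusted p = 8.05e-05). Without WT 0 h replicate 2 the first of these was 0.41 and passed (adjusted p = 0.0241). Gbp3, a GBP that is also recruited to parasite vacuoles, had the opposite timing, with 11.0 and 12.5 CPM at 0 h, 19.4 and 28.5 at 8 h, and 27.5 and 27.1 at 24 h. Its log2 change was 1.02 ± 0.19 by 8 h (edgeR, adjusted p = 0.000281) and 0.19 ± 0.18 from 8 to 24 h (adjusted p = 0.419). Iigp1, an effector IRG that loads onto parasite vacuoles, read 21.3 and 59.9 CPM at 0 h and 109.3 and 114.0 at 24 h, with 55.3 and 75.1 between them at 8 h. Its rise of 1.46 ± 0.48 passed (edgeR, adjusted p = 0.0315), but not without WT 24 h replicate 1 (adjusted p = 0.0787), WT 24 h replicate 2 (0.087) or KO 8 h replicate 1 (0.0528).

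**Figure D1:**
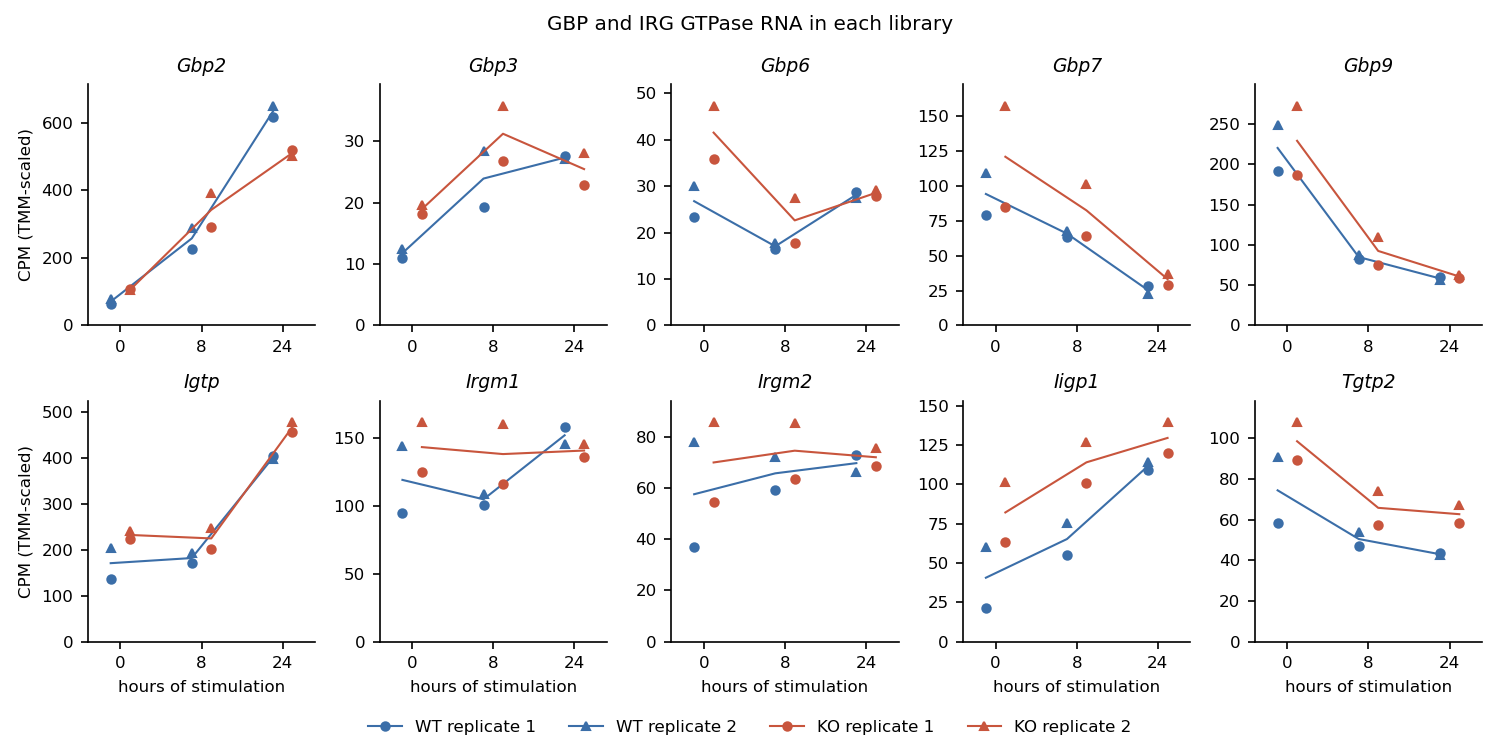
RNA of the 10 genes in each library, in CPM scaled by TMM factors (vertical axes, each from 0), against hours of stimulation (times drawn evenly spaced); points are libraries (circle replicate 1, triangle replicate 2) and lines join group means of WT (blue) and KO (red). Gbp2 and Igtp climb to 24 h, Gbp9 and Gbp7 decline, and the KO libraries of Gbp2 lie above the WT libraries at 0 and 8 h and below them at 24 h.

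Gbp9, another GBP found on parasite vacuoles, fell early: 191.2 and 249.1 CPM at 0 h became 82.5 and 87.3 at 8 h and 60.7 and 56.0 at 24 h. The 3 times did not overlap, and the log2 change by 8 h was -1.37 ± 0.22 (edgeR, adjusted p = 0.000402) and by 24 h -1.92 ± 0.22 (adjusted p = 4.1e-05). Gbp7, which in macrophages is known for helping to assemble the NADPH oxidase on vacuoles, fell later, from 79.3 and 108.7 CPM at 0 h through 63.5 and 67.9 at 8 h to 28.1 and 22.4 at 24 h. Its log2 change was -0.52 ± 0.35 by 8 h (edgeR, adjusted p = 0.234) and -1.38 ± 0.36 from 8 to 24 h (adjusted p = 0.0182). The later fall did not pass without either WT library of 8 h or of 24 h (adjusted p = 0.0629 and 0.078, and 0.0573 and 0.11), whereas the fall from 0 to 24 h, -1.90 ± 0.36 (edgeR, adjusted p = 0.00246), passed without each library in turn. Gbp7 and Gbp9 together made up 25.4% and 22.8% of the summed level per kilobase of the 10 genes in the WT libraries of 0 h and 3.01% and 2.65% at 24 h, while the share of Gbp2 went from 12.4% and 10.6% to 44.2% and 46.1%.

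Tgtp2, an effector IRG, read 58.2 and 90.7 CPM at 0 h, 47.1 and 53.9 at 8 h, and 43.4 and 42.5 at 24 h. Its log2 change by 24 h was -0.79 ± 0.20 (edgeR, adjusted p = 0.00438). The change by 8 h, -0.56 ± 0.20, passed with all libraries (edgeR, adjusted p = 0.0281). It did not pass when any of 8 libraries was left out in turn: WT 0 h replicate 2 (0.318), WT 8 h replicate 1 (0.158) or 2 (0.056), WT 24 h replicate 1 (0.081) or 2 (0.0809), KO 8 h replicate 2 (0.0611), and KO 24 h replicate 1 (0.0696) or 2 (0.0693). Of the 100-base stretches of its transcripts, 76.8% also occur in other genes, most of them in Tgtp1, and the sources do not say how reads matching several places were counted, so its counts are uncertain. Tgtp1 as counted changed by -0.45 ± 0.25 from 0 to 24 h in WT cells (adjusted p = 0.139).

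Gbp6 dipped and returned. It read 23.4 and 30.1 CPM at 0 h, 16.4 and 17.7 at 8 h, and 28.8 and 27.4 at 24 h. The log2 change was -0.65 ± 0.19 in the first step (edgeR, adjusted p = 0.0106) and 0.72 ± 0.19 in the second (adjusted p = 0.00841). The first was lost without WT 0 h replicate 2 (adjusted p = 0.102) or WT 8 h replicate 1 (0.0739), and the second without WT 8 h replicate 1 (0.0674) or WT 24 h replicate 1 (0.0568). Its counts are uncertain as well: 64.5% of its 100-base stretches occur in other genes, 59.0% in the overlapping gene model Gm43302, which had 0 counts in every library. Of the other 8 genes, Gbp7 shared 10.01% of its stretches and Igtp 5.16%, and the rest shared from 0% to 3.01%.

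Irgm1 and Irgm2, regulatory IRGs like Igtp, passed no test of time in the edgeR fit of all 12 libraries with the low-count filter and no replicate block. Irgm1 did pass in WT cells from 8 to 24 h and from 0 to 24 h without that filter (edgeR, adjusted p = 2.3e-05 and 0.00392). The replicate block also called both (edgeR, adjusted p = 0.00656 and 0.0293). Irgm1 read 94.4 and 143.7 CPM at 0 h, 100.8 and 108.8 at 8 h, and 158.0 and 145.8 at 24 h, and its change over 24 h was 0.35 ± 0.21 (95% interval from -0.12 to 0.82). Irgm2 read 37.1 and 77.9, then 59.2 and 72.1, then 72.9 and 66.4 CPM, and its change was 0.28 ± 0.37 (95% interval from -0.59 to 1.14). The wide spread at 0 h came with WT 0 h replicate 1, which was the lower library for all 10 genes. Without WT 0 h replicate 2 both changes passed (adjusted p = 0.00747 for Irgm1 and 0.0186 for Irgm2). From 8 to 24 h Irgm1 changed by 0.54 ± 0.21 (edgeR, adjusted p = 0.0665), and this passed without WT 0 h replicate 1 (0.0116) or 2 (0.0118) and with DESeq2 (0.50, adjusted p = 0.0179). Irgm2 passed from 0 to 8 h without WT 0 h replicate 2 (0.0309). Igtp and Irgm2 share 162 bases of annotated exons and, in the printed promoters, the spaced pair of motifs. Their estimated changes over 24 h were 2.35-fold and 1.21-fold, with overlapping 95% intervals (0.89 to 1.58 and -0.59 to 1.14 on the log2 scale). The difference between these genes was not tested.

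By single steps, 2 of the 10 genes rose and 3 fell in WT cells from 0 to 8 h, against 28.3% and 33.6% of all genes (61.9% in either direction). From 8 to 24 h 3 rose and 1 fell, against 24.0% and 19.3% (43.3% in either direction). The first count dropped from 5 to 3 without WT 8 h replicate 1. The second was 2 without WT 8 h replicate 1 or WT 24 h replicate 1.

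KO cells went through a similar split. At 24 h against 0 h 2 of the 10 genes rose (Gbp2 and Igtp) and 4 fell (Gbp6, Gbp7, Gbp9 and Tgtp2), against 30.3% of all genes higher and 29.2% lower (59.5% in either direction). Gbp2 went from 107.8 and 104.1 CPM at 0 h through 293.3 and 391.9 at 8 h to 520.9 and 501.5 at 24 h, a log2 change of 2.27 ± 0.15 (edgeR, adjusted p = 2.18e-08). Igtp went from 222.5 and 241.7 through 201.1 and 248.0 to 457.0 and 476.9 CPM, a log2 change of 1.01 ± 0.16 (edgeR, adjusted p = 0.000115). In both genotypes Igtp overlapped between 0 and 8 h and was higher at 24 h.

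Gbp9 in KO cells read 186.4 and 271.7 CPM at 0 h, 74.6 and 110.3 at 8 h, and 59.4 and 62.1 at 24 h. Gbp7 read 84.6 and 156.6, then 63.7 and 100.9, then 29.1 and 37.1 CPM. The falls over 24 h, -1.91 ± 0.22 for Gbp9 and -1.86 ± 0.36 for Gbp7, lay within 0.05 of those in WT cells (changes of the KO effect 0.00 ± 0.31 and 0.03 ± 0.50, with edgeR adjusted p = 1 and 0.979, and 95% intervals from -0.69 to 0.69 and from -1.14 to 1.21). With RLE size factors these changes were -0.05 and -0.01.

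Tgtp2 in KO cells fell by 0.65 ± 0.19 over 24 h (edgeR, adjusted p = 0.0133), but did not pass without KO 0 h replicate 2 (0.116) or KO 24 h replicate 1 (0.133). Gbp6 read 35.8 and 47.1 CPM at 0 h, 17.8 and 27.4 at 8 h, and 27.8 and 29.2 at 24 h, so the libraries of 24 h stayed below those of 0 h. That change, -0.54 ± 0.19, passed (edgeR, adjusted p = 0.0237), but not without WT 24 h replicate 1 (0.0575) or 2 (0.0577), KO 0 h replicate 2 (0.195), or KO 24 h replicate 1 (0.156) or 2 (0.105). Gbp3 read 18.2 and 19.7 CPM at 0 h, 26.8 and 35.7 at 8 h, and 22.9 and 28.0 at 24 h, and over 24 h changed by 0.43 ± 0.18 (adjusted p = 0.0562) and passed when any of 7 libraries was left out. Iigp1 changed by 0.66 ± 0.46 (adjusted p = 0.261) and passed without WT 0 h replicate 1 (0.0412) or 2 (0.0424).

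In KO cells from 0 to 8 h 2 genes rose and 3 fell, against 28.6% and 32.9% of all genes (61.5% in either direction), and these were the 5 genes called in WT cells, Gbp2 and Gbp3 higher and Gbp6, Gbp9 and Tgtp2 lower. The fall of Tgtp2 was lost without WT 24 h replicate 1 (0.0588) or 2 (0.0587), KO 0 h replicate 2 (0.166) or KO 8 h replicate 1 (0.178). From 8 to 24 h 2 rose (Gbp2 and Igtp) and Gbp7 fell, against 18.9% and 15.6% of all genes (34.4% in either direction). This count of 3 was 1 without KO 24 h replicate 1 and 2 without KO 24 h replicate 2. Gbp7 was lost without either and without KO 8 h replicate 2 (adjusted p = 0.154, 0.0841 and 0.137), and Gbp2 without KO 8 h replicate 1 (0.0736) or KO 24 h replicate 1 (0.0505).

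**Figure D2:**
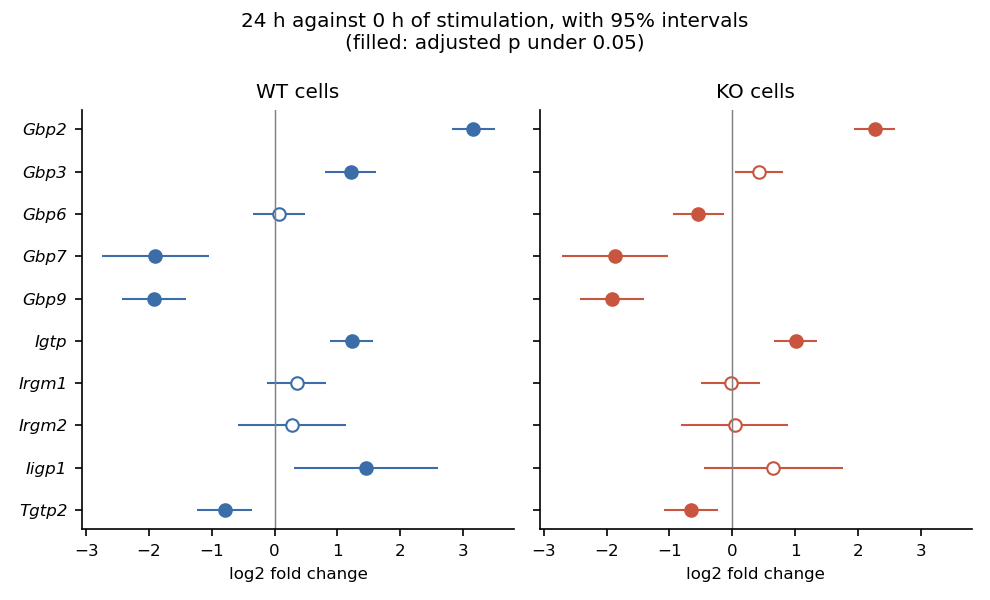
Log2 fold change from 0 to 24 h of stimulation in WT (left, blue) and KO cells (right, red) for the 10 genes; points are edgeR estimates, bars 95% intervals, and filled points have an adjusted p under 0.05. Gbp2 lies at 3.16 in WT and 2.27 in KO cells, and Gbp7 and Gbp9 lie near -1.9 in both.

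The comparison of genotypes asks how these genes differed between KO and WT samples at each time. Ddx55 itself read from 45.3 to 68.7 CPM in the WT and from 14.4 to 19.5 CPM in the KO libraries, with no overlap. In the edgeR fit without a replicate block 1 of 10 genes passed between genotypes at 0 h (Gbp2, higher in KO), 0 at 8 h and 1 at 24 h (Tgtp2, higher in KO), and the counts at 0 and 24 h varied with the settings. The shares of all genes called were 5.70% at 0 h (4.63% higher and 1.07% lower), 2.65% at 8 h (1.90% higher and 0.746% lower) and 38.5% at 24 h (17.9% higher and 20.7% lower), so at 24 h the members' share lay below that of all genes.

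At 0 h all 10 log2 fold changes were above 0, from 0.06 for Gbp9 to 1.02 for Iigp1, with a median of 0.42 against -0.03 for all genes. The sign depended on single libraries for some genes. With 1 library left out, the lowest values were -0.24 for Gbp9, -0.15 for Gbp7, -0.15 for Irgm2 and -0.004 for Irgm1. The KO libraries lay above both WT libraries for Gbp2, Gbp3, Gbp6, Igtp and Iigp1, 5 of 10 genes, which 19.7% of all genes showed, while 23.4% had both KO libraries below. For Gbp2 the KO libraries held 107.8 and 104.1 CPM and the WT libraries 62.6 and 78.9. The log2 fold change of 0.58 ± 0.15 is a 1.5-fold difference (edgeR, adjusted p = 0.0362). This call was lost without WT 0 h replicate 1 (0.43, adjusted p = 0.256), KO 0 h replicate 1 (0.154) or 2 (0.0842), or WT 24 h replicate 1 (0.0519) or 2 (0.0517), and when only the 4 libraries of 0 h were fitted (0.0554).

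Gbp3, at 18.2 and 19.7 CPM in KO against 11.0 and 12.5 in WT cells, just missed the threshold with 0.69 ± 0.19 (edgeR, adjusted p = 0.0502), and passed with RLE size factors (0.0379). Gbp6 had 0.63 ± 0.19 (adjusted p = 0.0727) and Igtp 0.44 ± 0.16 (adjusted p = 0.143). With DESeq2 Gbp3 (adjusted p = 0.0237), Gbp6 (0.0311) and Igtp (0.0432) passed. Iigp1 read 63.0 and 101.2 CPM in KO and 21.3 and 59.9 in WT cells, the largest log2 difference of the 10 genes with the widest spread (1.02 ± 0.47, 95% interval from -0.12 to 2.16, adjusted p = 0.346). For Gbp7, Gbp9, Irgm1, Irgm2 and Tgtp2 the genotypes overlapped. Irgm1 read 125.1 and 161.3 CPM in the KO libraries, Irgm2 54.3 and 85.5, and Tgtp2 89.3 and 107.8. Without WT 0 h replicate 2, 4 genes passed at 0 h instead of 1, and 0 passed without WT 0 h replicate 1, WT 24 h replicate 1 or 2, or KO 0 h replicate 2. It was 2 without WT 8 h replicate 1 or 2 or KO 24 h replicate 1 or 2, and 3 without KO 8 h replicate 1 or 2.

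At 8 h all 10 fold changes were again above 0, from 0.12 for Gbp9 to 0.81 for Iigp1, with a median of 0.38 against -0.00 for all genes. With 1 library left out, the lowest values were -0.18 for Gbp9, -0.04 for Irgm2 and -0.03 for Gbp7. The KO libraries lay above both WT libraries for 6 genes (Gbp2, Gbp6, Igtp, Irgm1, Iigp1 and Tgtp2), which 22.1% of all genes showed, with 21.4% the other way. By edgeR 0 of 10 passed, 2 had an unadjusted p under 0.05, and DESeq2 called 0. For Gbp2, 293.3 and 391.9 CPM stood against 227.8 and 288.3, so the lower KO library was barely above the higher WT library (0.41 ± 0.15, 95% interval from 0.09 to 0.72, adjusted p = 0.184), and it passed without KO 8 h replicate 1 (0.0432). For Iigp1, 101.0 and 127.0 CPM stood against 55.3 and 75.1 (0.81 ± 0.46, adjusted p = 0.526). Irgm1 read 116.1 and 160.0 CPM in KO against 100.8 and 108.8 in WT cells, and Tgtp2 57.6 and 74.0 against 47.1 and 53.9.

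At 24 h the fold changes lay on both sides of 0, with a median of 0.05 against 0.02 for all genes. The KO libraries were above both WT libraries for Gbp7, Igtp, Iigp1 and Tgtp2 and below both for Gbp2 and Irgm1, where 37.5% of all genes lay above and 35.5% below. Tgtp2 read 58.3 and 67.1 CPM in KO and 43.4 and 42.5 in WT cells (0.54 ± 0.20, edgeR, adjusted p = 0.0499). With RLE size factors its adjusted p was 0.0546. It kept its call when either WT library of 0 h was left out and lost it without each of the other 10 libraries: WT 8 h replicate 1 (0.0688) or 2 (0.0693), WT 24 h replicate 1 (0.153) or 2 (0.178), KO 0 h replicate 1 (0.0743) or 2 (0.0746), KO 8 h replicate 1 (0.0571) or 2 (0.0527), and KO 24 h replicate 1 (0.0806) or 2 (0.217). Tgtp1, which shares most of its sequence, had 0.48 ± 0.25 (adjusted p = 0.159).

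Gbp2 read 520.9 and 501.5 CPM in KO against 619.1 and 649.0 in WT cells at 24 h. The KO libraries were thus the lower ones at this time and the higher ones at 0 and 8 h. The log2 fold change was -0.31 ± 0.15 (edgeR, adjusted p = 0.109). It passed, as lower, when only the 4 libraries of 24 h were fitted (-0.31, adjusted p = 0.00346) or KO 8 h replicate 1 was left out (adjusted p = 0.0483). Iigp1, at 119.7 and 139.3 CPM in KO against 109.3 and 114.0 in WT cells, had 0.21 ± 0.46 (adjusted p = 0.761), and Gbp6 had 0.02 ± 0.19, or -0.00 with RLE size factors. In KO cells at 24 h Igtp, at 230.9 ± 6.96 CPM per kilobase, stood above Gbp2 at 203.2 ± 5.46, with no overlap, whereas in WT cells Gbp2, at 252.0 ± 8.41, stood above Igtp at 198.0 ± 2.32.

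**Figure D3:**
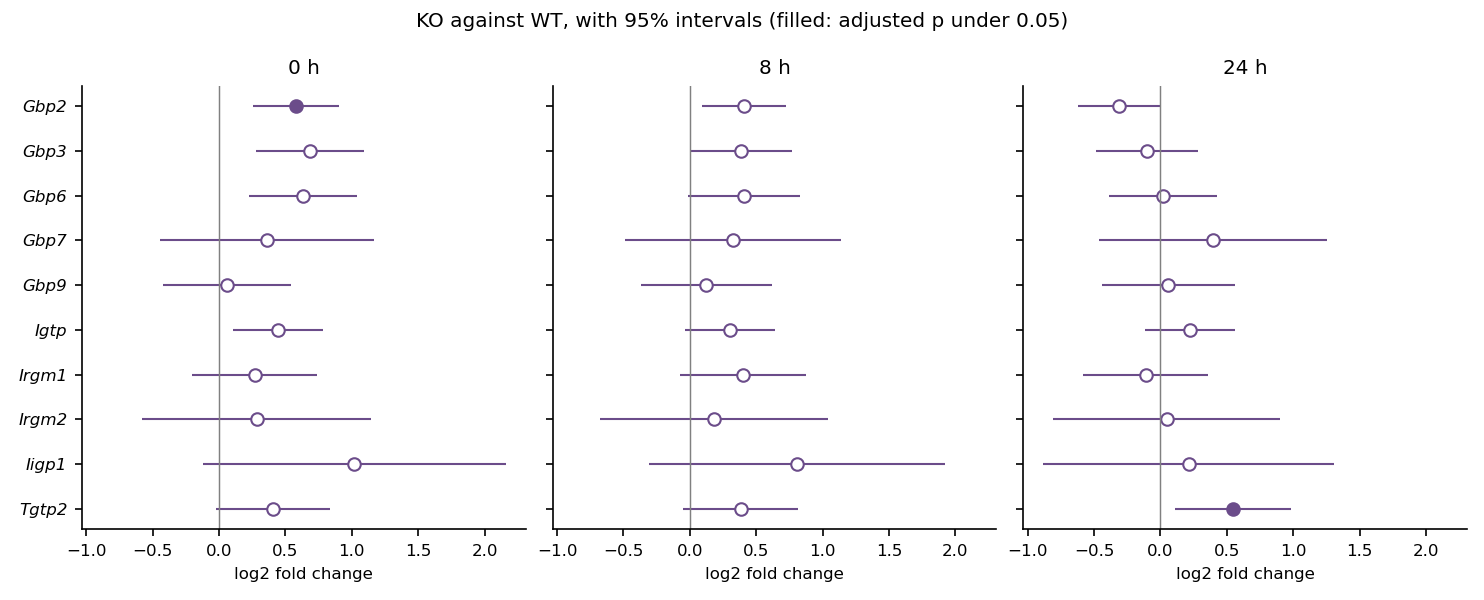
Log2 fold change of KO against WT cells at 0, 8 and 24 h for the 10 genes; points are edgeR estimates, bars 95% intervals, and filled points have an adjusted p under 0.05. Gbp2 is at 0.58, 0.41 and -0.31, and the filled points are Gbp2 at 0 h and Tgtp2 at 24 h.

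The change of the KO effect over time was tested as an interaction. From 0 to 24 h the effect on Gbp2 fell by 0.89 ± 0.21 on the log2 scale (edgeR, adjusted p = 0.00624), a call that held without each of the 12 libraries in turn. The effect on Gbp3 fell by 0.79 ± 0.26 (edgeR, adjusted p = 0.038), from 0.69 to -0.10. These were 2 of 10 genes, both lower, against 26.7% of all genes in either direction (11.9% higher and 14.8% lower). Gbp3 lost its call without WT 0 h replicate 1 (0.123) or 2 (0.0574), WT 24 h replicate 1 (0.0965) or 2 (0.0822), KO 0 h replicate 1 (0.0555) or 2 (0.0907), or KO 24 h replicate 1 (0.134). Gbp6, with -0.61 ± 0.27 (adjusted p = 0.11), passed without KO 0 h replicate 1 (0.0415) or KO 8 h replicate 1 (0.0376) or 2 (0.038), and Iigp1 (0.0166) and Igtp (0.0445) passed without WT 0 h replicate 2.

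From 8 to 24 h the effect on Gbp2 fell by 0.72 ± 0.21 (edgeR, adjusted p = 0.0315), the 1 gene of 10 called against 14.4% of all genes (5.49% higher and 8.96% lower). This call was lost without WT 8 h replicate 1 (0.131), WT 24 h replicate 1 (0.0848) or 2 (0.104), KO 8 h replicate 2 (0.112), or KO 24 h replicate 1 (0.0852) or 2 (0.109). From 0 to 8 h edgeR called 0 of 10 genes, 0 had an unadjusted p under 0.05, DESeq2 called 0, and 0.995% of all genes were called (0.261% higher and 0.733% lower). The largest change there was that of Gbp3, -0.30 ± 0.26 (95% interval from -0.86 to 0.26).

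Summed marker RNA of other cells differed between the genotypes as well, in both directions. Summed CPM of 12 defining CD4 T cell markers lay between 4670 and 7236 in all libraries. This sum was 6359 to 7069 in KO against 7190 to 7236 in WT cells at 0 h, and 5644 to 5802 against 4670 to 5264 at 24 h. At 8 h the genotypes overlapped, at 6455 to 6812 in KO and 6731 to 6973 in WT cells. At 24 h 4 of the 12 were called higher and 0 lower, where 17.9% of all genes were called higher. The 11 macrophage and monocyte markers, cells in which GBP and IRG genes are strongly inducible, summed to 68.8 to 160.2 CPM in KO against 30.0 to 47.1 in WT cells at 0 h, 32.2 to 58.2 against 18.2 to 19.1 at 8 h, and 35.6 to 39.4 against 14.5 to 17.5 at 24 h, with 0 of the 11 at 0 in any group. Of 10 tested, 2, 1 and 2 were called higher at 0, 8 and 24 h and 0 lower. Over all genes 4.63%, 1.90% and 17.9% were called higher, so the share of these markers at 24 h was near that of all genes. Adgre1 read 1.27 and 1.65 CPM in KO against 2.66 and 2.05 in WT cells at 0 h. The 9 basophil and mast cell markers summed to 312 to 807 CPM in KO against 23.6 to 44.8 in WT cells at 0 h and to 175 to 619 against 9.47 to 10.3 at 24 h. The 12 neutrophil and progenitor markers summed to 515.3 to 516.1 against 13.4 to 56.5 CPM at 0 h, and the 9 dendritic cell markers to 27.7 to 30.8 against 2.17 to 3.12 at 24 h, where Clec9a and Cd209a were at 0 in both groups. The 9 B cell markers summed to less in KO cells at 24 h, 88.5 to 104 against 231 to 247 CPM. Of 5 tested 1 was called lower, against 20.7% of all genes, and the median log2 fold change of the 5 was 0.91. Sums of the 8 stromal and endothelial markers overlapped at 24 h, at 42.0 to 48.6 CPM in KO and 44.1 to 52.2 CPM in WT cells. The part of these cells in the differences between genotypes was not tested.

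The libraries of a group also differed from each other in a shared direction. Replicate 2 was higher than replicate 1 for 10 of 10 genes in WT cells at 0 h (median log2 difference 0.52) and at 8 h (0.18), for 9, 10 and 9 of 10 in KO cells at 0, 8 and 24 h (0.38, 0.42 and 0.12), and for 2 of 10 in WT cells at 24 h (-0.05). Over all genes tested the share with replicate 2 higher lay between 44.4% and 54.7%. The gap was widest for Iigp1 in WT cells at 0 h, at 1.49. Iigp1, Irgm2 and Gbp7 had the largest standard errors of the 10 genes at 0 h. Genes induced by type I interferon were higher in replicate 2 for 25 of 25 in WT cells at 0 h and 20 of 25 in KO cells at 0 h, but for 11 of 25 in KO cells at 8 h.

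**Figure D4:**
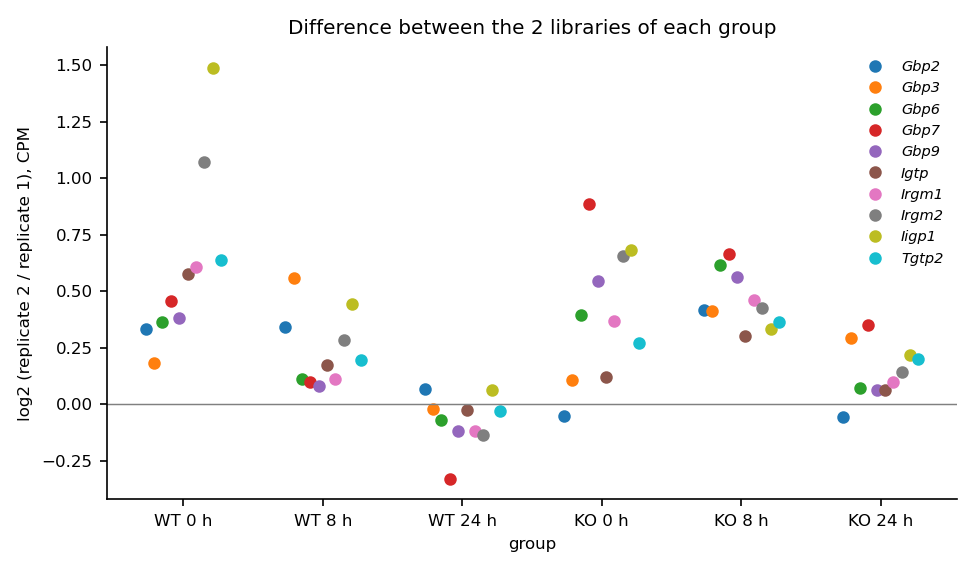
Log2 ratio of replicate 2 to replicate 1, in CPM, for each of the 10 genes (colours) in each of the 6 groups. Points lie above 0 for 10 of 10 genes in WT cells at 0 and 8 h and in KO cells at 8 h, and for 2 of 10 in WT cells at 24 h.

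Across the 12 libraries the members did not move as 1 block. Pearson correlations of log2 CPM between pairs of the 10 genes ranged from -0.93 (Gbp2 and Gbp9) to 0.87 (Gbp7 and Gbp9), with 0.85 for Gbp2 and Gbp3. These describe 12 libraries that share time and genotype, and carry no test. With the mean standardised pattern of the 10 genes, Irgm1 correlated most (0.93) and Gbp9 least (0.04). Each of the 10 enters this mean, so these values are not independent of it. The search covered 9736 genes with a mean of at least 5 CPM, a number that includes the 10 members. Outside the members, after 2 predicted genes were passed over, genes most like that mean pattern over the 12 libraries included Atp6v0a1 (0.75), Gbp10 (0.75), Tceanc2 (0.73), Gbp4 (0.71), Ly6a (0.71), Hdc (0.71), Slc15a4 (0.70), Sec24a (0.69) and Ms4a4c (0.67). Hdc, the histidine decarboxylase of basophils and mast cells, read 0.992 to 4.31 CPM in the WT and 4.74 to 23.2 CPM in the KO libraries. Gbp4 overlaps Gbp9 by 60 exon bases, and Gbp4 and Gbp10 share 100-base stretches with Gbp6.

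Upstream of the family, Ifng, the gene of interferon gamma, was the 1 gene of 19 interferon ligands that passed the filter on low counts. It read 0.532 and 0 CPM in WT cells at 0 h, 2.7 and 2.05 at 8 h, and 2.48 and 1.89 at 24 h, against 1.65 and 0.902, 14.9 and 10.6, and 28.3 and 22.6 CPM in KO cells. The libraries did not overlap at any time, and the KO excess was 2.42 ± 0.41 on the log2 scale at 8 h (edgeR, adjusted p = 0.0111) and 3.54 ± 0.41 at 24 h (adjusted p = 4.88e-05), with 2.21 ± 0.72 at 0 h (adjusted p = 0.116). The 11 markers of CD8 T and NK cells, which also make interferon gamma, summed to 184 to 311 CPM in KO against 110 to 115 in WT cells at 0 h. The sums were 87.1 to 124 against 38.9 to 44.4 at 8 h and 216 to 350.4 against 43.1 to 51.2 at 24 h. Neither the source cells of this RNA nor their part in the Ifng difference was tested. Of the 11, 5, 3 and 6 were called higher at 0, 8 and 24 h and 0 lower, against 4.63%, 1.90% and 17.9% of all genes called higher. Cd8a, however, read 1.20 and 0.701 CPM in KO against 1.67 and 1.19 in WT cells at 24 h.

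Receptor genes fell with stimulation in both genotypes, 5 of 5 tested between 0 and 24 h, against 33.6% of all genes in WT and 29.2% in KO cells. All 5 were called higher in KO than in WT cells at 24 h, against 17.9% of all genes. Ifngr2, the signalling chain of the interferon gamma receptor, read 29.3 and 30.5 CPM in KO and 16.1 and 19.9 in WT cells at that time (0.73 ± 0.12, edgeR, adjusted p = 0.000299). At 0 h only Ifngr1, the ligand-binding chain, was called among the 5 (0.78 ± 0.12, edgeR, adjusted p = 0.00142), where 4.63% of all genes were called higher.

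Over all genes 4.63%, 1.90% and 17.9% were called higher and 1.07%, 0.746% and 20.7% lower in KO cells at 0, 8 and 24 h. Of 12 kinases and transcription factors of the pathway 2 were higher in KO cells at 0 h (Stat2 and Irf7), 0 at 8 h by edgeR and 7 at 24 h. None of them was called lower. Irf1, the factor that relays interferon gamma signals to response elements, read 395 and 379 CPM in KO against 256 and 260.3 in WT cells at 24 h (0.58 ± 0.10, edgeR, adjusted p = 0.000265). Of 8 inhibitors 3, 2 and 4 were higher in KO cells at 0, 8 and 24 h and 0, 0 and 1 lower. Socs1, which blocks JAK kinases, was among the higher ones at each time, by 0.85 ± 0.11, 0.45 ± 0.11 and 1.08 ± 0.11 (edgeR, adjusted p = 0.000519, 0.0462 and 2.37e-06).

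**Figure D5:**
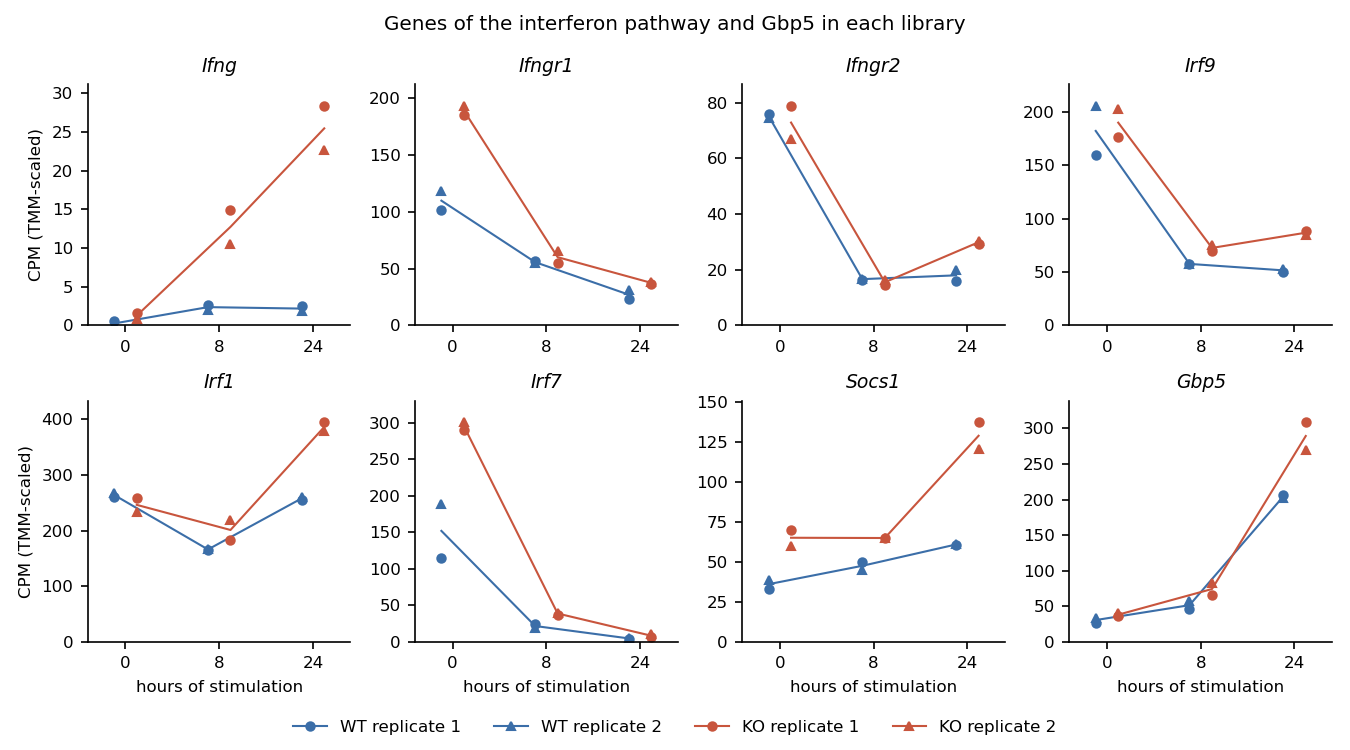
CPM scaled by TMM factors (vertical axes, each from 0) against hours of stimulation (times drawn evenly spaced) for Ifng, its receptor genes Ifngr1 and Ifngr2, Irf9, Irf1, Irf7, Socs1 and Gbp5; points are libraries (circle replicate 1, triangle replicate 2) and lines join group means of WT (blue) and KO (red). At 24 h the KO libraries lie above the WT libraries in all 8 panels, with Ifng at 28.3 and 22.6 against 2.48 and 1.89. Irf1 was picked after its values were seen and the others by small p in KO against WT comparisons. The shared direction thus follows in part from the choice, and Ptpn6, called lower in KO cells at 24 h (-0.56), is not drawn.

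Relatives of the 10 genes were read from a list of 19 other GBP, IRG and very large inducible GTPase genes, of which 17 were tested. KO cells had 1 higher at 0 h (Gbp11), 1 at 8 h (Gm4841) and 5 at 24 h, with 0 lower at each time, where 4.63%, 1.90% and 17.9% of all genes were called higher. Gbp5, a GBP known for promoting inflammasome assembly, followed Gbp2 in WT cells, with 26.8 and 33.8 CPM at 0 h and 206 and 202 at 24 h (2.75 ± 0.15, edgeR, adjusted p = 7.46e-10). At 24 h, however, it was higher in KO cells, at 308 and 270.4 CPM (0.50 ± 0.13, edgeR, adjusted p = 0.00793), where Gbp2 had -0.31 ± 0.15. Gbp8, a neighbour of Gbp9, fell in WT cells as Gbp9 did (-1.92 ± 0.14, edgeR, adjusted p = 2.46e-08). Gbp11 was higher in KO cells at 0 h by 1.14 ± 0.22 (edgeR, adjusted p = 0.00652) and fell over 24 h in both genotypes. Over the 17 relatives 5 rose and 8 fell in WT cells from 0 to 24 h, where 33.0% of all genes rose and 33.6% fell.

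Other interferon-induced groups were set beside the members, with the shares of all genes called higher (4.63%, 1.90% and 17.9%) and lower (1.07%, 0.746% and 20.7%) in KO cells at 0, 8 and 24 h as the background. Of 12 class I antigen presentation genes that interferon gamma induces, 0, 0 and 7 were higher in KO cells at 0, 8 and 24 h by edgeR, with 1 lower at 24 h, among them H2-K1 (1.17 ± 0.12), Tap2 (1.03 ± 0.11) and B2m (0.94 ± 0.11). Of 25 tested genes induced by type I interferon 16, 7 and 8 were higher at these times and 0, 0 and 2 lower, with median log2 fold changes of 1.07, 0.71 and 0.46. In WT cells 23 of these 25 fell and 0 rose from 0 to 24 h, a median of -3.07, while the 10 members had a median of 0.31. Of 6 inflammasome genes that act with GBP proteins Casp1 and Casp4 were higher in KO cells at all 3 times, for example by 1.17 ± 0.26 and 1.29 ± 0.27 at 0 h (edgeR, adjusted p = 0.0153 and 0.0124). At 24 h Gsdmd was also higher (0.69 ± 0.10) and Pycard lower (-0.60 ± 0.15, edgeR, adjusted p = 0.00641). Of 10 autophagy conjugation genes, which place GBP and IRG proteins on vacuoles, 1, 0 and 2 were higher at 0, 8 and 24 h and 1 was lower at 24 h, a share called higher at 24 h near that of all genes. Gabarapl1 was the higher one at 0 h (1.5 ± 0.18) and the lower one at 24 h (-0.59 ± 0.14).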

How the data were processed

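Per the labels' protocols, stranded libraries of rRNA-depleted total RNA were sequenced with paired reads. The submitters' processing notes name fastp 0.12.4, STAR 2.7.1a and mm10, with no roles. The deposited gene table holds raw counts per gene and library. The counter, its annotation and the treatment of reads matching several places: not given in the sources used here. The repeat table was not analysed. Totals per library were 16810375 to 19126498, which sets the counting precision.

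Of 54232 genes, 54079 matched a symbol of GENCODE M21. filterByExpr (minimum count 10, minimum total 15) kept 15679 and removed 38553. A quasi-likelihood fit (edgeR 4.0.16, R 4.3.3, TMM factors) gave 1 mean per group, with 6 residual degrees of freedom and 12 contrasts, two-sided, with Benjamini-Hochberg adjustment over all genes tested. Correlations used log2 CPM with a prior count of 2. The fit was tested on simulated data. Alternatives were RLE factors, DESeq2 1.42.0, other filters, a replicate block, the libraries of 1 time, and leaving out libraries.

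The 10 members and the gene lists were chosen with earlier results of these data known. Named genes are all 10 members, up to 3 genes with the smallest p per pathway list, and the 10 most alike genes, of which some are not reported here. Irf1, Gbp8, Tgtp1, Pycard and the markers Adgre1 and Cd8a were named after their values were seen.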

Additional observations from a re-analysis of the deposited data

Results flagged for a closer look

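In 3 cases the KO effect differed between times by a test of the difference itself. For Gbp2 it changed by -0.89 on the log2 scale from 0 to 24 h (from 0.58 to -0.31) and by -0.72 from 8 to 24 h (from 0.41 to -0.31). For Gbp3 it changed by -0.79 from 0 to 24 h (from 0.69 to -0.10). Gbp2 from 0 to 24 h was the 1 of these that passed without each of the 12 libraries in turn.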

How the results depend on the processing

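The count of members called for KO against WT at 0 h, 1 of 10, was 2 with RLE size factors, 2 with a filter of CPM of at least 1, 4 with DESeq2, 5 without a filter, 5 with a replicate block and 0 with the 4 libraries of that time. At 8 h the count of 0 became 3 without a filter and 1 with the 4 libraries of that time. At 24 h the count of 1 became 0 with RLE factors, 2 without a filter, 2 with the replicate block and 4 with the 4 libraries of that time. The change of the KO effect from 8 to 24 h went from 1 to 2 without a filter. In 2 alternatives chosen after seeing the data, without the 3 KO libraries numbered 1 the counts were 2, 1 and 0 at 0, 8 and 24 h, and without the 3 numbered 2 they were 0, 0 and 0, with 0 for the change from 8 to 24 h. The cause was not tested. Without single libraries the counts ranged from 0 to 4, 0 to 1 and 0 to 1 for KO against WT at 0, 8 and 24 h, from 3 to 6, 2 to 6 and 6 to 9 for WT at 8 h against 0 h, 24 h against 8 h and 24 h against 0 h, from 4 to 6, 1 to 4 and 4 to 7 for the same steps in KO cells, and from 0 to 0, 0 to 1 and 1 to 3 for how the KO effect changed from 0 to 8 h, 8 to 24 h and 0 to 24 h. None of the results reversed after being called. The replicate numbers were not taken to pair the samples. Over 15 pairs of groups the correlation of deviations ran from -0.0997 to 0.288 and exceeded 0.1 in 8. Among these were the 3 pairs of KO groups (0.111 to 0.288), and pairs of WT groups had 0.22, 0.106 and 0.09. Whether libraries of the same number within a genotype share a source is not given, and the tests of time treat them as independent. The replicate block used 1 shift for both genotypes, and pairing within each genotype was not fitted. With the replicate block 109 of 120 single results kept their side of the threshold and 11 passed in addition: at 0 h KO against WT Gbp3 (adjusted p = 0.00723), Gbp6 (0.0102), Igtp (0.0243) and Tgtp2 (0.0429), at 24 h Gbp2 (-0.31, adjusted p = 0.0455, lower in KO), Irgm1 in WT cells from 8 and from 0 to 24 h (0.00656 and 0.0293), Gbp9 from 8 to 24 h in WT and KO cells (0.0119 and 0.00887), Gbp3 from 0 to 24 h in KO cells (0.0151), and Gbp6 for the change of its KO effect from 0 to 24 h (0.0299), whose count went from 2 to 3. With 2 libraries per group the intervals of Iigp1, Irgm2 and Gbp7 span differences of more than 1 on the log2 scale.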
